A study of Mus musculus with 4 samples.

Results

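The response of tumour-sorted cells to cisplatin 1 day after injection was described by comparing 1 droplet library taken on day 1 with 1 library from the PBS group, across all genes. Barcodes of both libraries were kept when they had at least 500 detected genes and at most 10% of their UMIs (unique molecular identifiers, the counted RNA molecules) from mitochondrially encoded genes. This gave 15559 of the 23294 barcodes that the same limits keep in the 4 libraries of the series, 8075 from PBS and 7484 from day 1. In both groups wild-type C57/bl6 mice carried tumours grown from 300000 TC-1 cells, a mouse lung epithelial tumour line, placed under the skin. When the tumour measured 40 mm², the mice received either PBS or cisplatin at 6 mg/kg, once and into the peritoneum. The sort took CD45+ lin- CD90+ CD127+ cells, which is a gate meant for ILCs (innate lymphoid cells), the cells that the labels name in each library. Tumours of the day 1 library were taken 1 day after cisplatin, whereas for PBS no day is given and 1 label field calls the source untreated. The number of mice behind a library is not stated. With 1 library a side no difference could be tested, and cisplatin, tumour age, sort and library cannot be told apart.

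Cisplatin binds DNA and joins neighbouring bases, within a strand and across strands, and the lesions stall replication. The damage stabilises the transcription factor p53, whose targets include the cell cycle inhibitor p21 (Cdkn1a), the p53 ubiquitin ligase Mdm2 and the death genes Bax, Pmaip1 and Bbc3. Cells held by p53 stop making the mitotic regulators that are normally transcribed in G2, through the DREAM complex, which reads CHR elements in their promoters, while the factor NF-Y acts on CCAAT boxes of the same promoters. Macrophages of tumours engulf dying cells, present antigen on MHC class II and can divide in place. ILCs are lymphocytes without antigen receptors. The positive markers of the sort were CD127, encoded by Il7r, CD90, encoded by Thy1, and CD45, encoded by Ptprc.

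The transcripts went against the label. At an equal depth of 2000 UMIs a barcode, 95.9% of PBS and 94.0% of day 1 barcodes held the complement gene C1qa, a macrophage marker, and 1.97% and 5.70% held Thy1. Without thinning, the sort marker Il7r was found in 834 PBS and 2476 day 1 barcodes, and Thy1 in 377 and 1218. The CD45 gene Ptprc was found in 6600 and 6818 barcodes. Both libraries are therefore described as what passed the sort, mostly macrophage RNA, and not as ILCs. A pair of ranges of barcodes was set apart on counts thinned to 2000 UMIs. The macrophage gate asks for at least 4 of 10 macrophage genes and 0 of 15 T and NK cell genes. It held 6781 PBS and 4902 day 1 barcodes, or 84.0% (95% interval 83.2 to 84.8%) and 65.5% (64.4 to 66.6%) of the kept barcodes. The lymphoid gate asks for at least 3 of the 15 lymphoid genes and at most 1% of UMIs from macrophage genes. It held 116 and 310 barcodes, or 1.44% (1.19 to 1.72%) and 4.14% (3.70 to 4.62%). These are ranges and not cell types. Near their limits, 314 PBS and 1059 day 1 barcodes had 4 or more macrophage genes with 1 or 2 lymphoid genes, and 78 and 273 had exactly 2 lymphoid genes. A further 93 and 407 mixed barcodes passed the lymphoid count but held more than 1% macrophage UMIs, with median doublet scores of 0.177 and 0.143 beside 0.109 and 0.0930 in the macrophage gate. In the macrophage gate the median barcode held 2.24% and 2.32% of its UMIs from the 10 macrophage genes and 0% from the T cell, NK, neutrophil and endothelial marker lists. The gate was chosen on these macrophage genes and on T and NK cell genes, so those values largely follow from the choice. A median of 0 also hides scattered RNA. Without thinning, a neutrophil gene was found in 14.87% of PBS and 44.96% of day 1 gate barcodes. For endothelial genes the shares were 7.33% and 20.5%, and for T cell genes 5.28% and 29.6%. The kept barcodes summed to 57064112 UMIs after PBS and 76030822 on day 1, with medians of 6343 and 9120 UMIs a barcode, and 12.8% and 20.1% of deposited barcodes were dropped for mitochondrial RNA alone. The libraries shared 19 barcode sequences.

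Levels are given in CPM, the summed UMIs of a gene scaled to the summed UMIs of the same barcodes, with the log2 ratio of day 1 over PBS and its exact 95% interval. All intervals cover counting error only, because UMIs within a library are not replicates. Over all kept barcodes 12055 genes had at least 100 UMIs over the 2 libraries, of which 14.6% stood at least 1.5-fold higher on day 1 and 4.11% at least 1.5-fold lower, around a median log2 ratio of 0.11. In the macrophage gate 9.71% of 11322 genes were higher and 5.08% lower, and in the lymphoid gate 12.2% and 3.72% of 2527. Scaling by edgeR's TMM factors shifted every log2 ratio by -0.15 over all barcodes and by -0.12 in the macrophage gate, and DESeq2 size factors shifted them by -0.15 and -0.10. Of the genes past 1.5-fold over all barcodes, 78.0% were higher with CPM, 59.9% with TMM and 58.5% with DESeq2 factors. The shares in the macrophage gate were 65.7%, 49.8% and 52.2%. In sums over barcodes, fewer cells of a type and less RNA per cell cannot be told apart.

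Genes of the p53 response were higher on day 1. Of 57 targets in 4 lists, 56 had 100 UMIs, and 28 of these stood at least 1.5-fold higher and 0 lower, with a median log2 ratio of 0.58 beside 0.11 for all genes. The remaining target, the membrane protein gene Perp, had 10 PBS and 31 day 1 UMIs. With either other scaling 22 targets were higher and 1 lower, and the median was 0.44 with TMM and 0.43 with DESeq2 factors. The minimum is summed over both libraries, so scarce targets such as Eda2r and Trp53cor1 passed it mainly through day 1. With no minimum beyond 1 UMI the median of 57 targets was 0.59, and with at least 500 UMIs that of 48 was 0.55. Phlda3 (ENSMUSG00000041801; GRCm38 chromosome 1, 135766119 to 135769136, plus strand), a p53 target that restrains the survival kinase Akt, had the highest ratio of the 56. It counted 575 PBS UMIs (10.1 CPM) and 4447 day 1 UMIs (58.5 CPM), for a log2 ratio of 2.54 (2.41 to 2.67). Its 10 richest day 1 barcodes held 5.15% of its UMIs, so the difference was spread over many barcodes.

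Among targets for arrest and feedback, 8 of 14 were past 1.5-fold with CPM and 5 with either other scaling. Cdkn1a (ENSMUSG00000023067; GRCm38 chromosome 17, 29090976 to 29100727, plus strand) had a PBS level of 290.1 CPM and a day 1 level of 696 CPM, for a log2 ratio of 1.26 (1.24 to 1.29). Trp53inp1, a stress protein that aids p53 and autophagy, stood at 4.43 and 23.9 CPM, a log2 ratio of 2.43 (2.24 to 2.62). Mdm2 (ENSMUSG00000020184; chromosome 10, 117688875 to 117710758, minus strand), the ubiquitin ligase that returns p53 to a low level, stood at 83.2 and 161 CPM, a log2 ratio of 0.95 (0.91 to 1.00). The feedback gene Mdm2 was thus higher together with the arrest gene Cdkn1a. Ccng1, another feedback target, had a log2 ratio of 1.20 (1.14 to 1.27) and Zmat3, an RNA-binding target, of 1.34 (1.17 to 1.52). The list was not uniform. The phosphatase gene Ppm1d, also a feedback target, had a ratio of 0.20, the stress kinase gene Plk3 of -0.06 and the ubiquitin ligase gene Cop1 of 0.20.

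Of 13 measured death targets 8 were past 1.5-fold. The BH3-only gene Pmaip1 had a log2 ratio of 1.16 (1.02 to 1.31), and the death receptor genes Fas and Tnfrsf10b of 0.81 and 1.22. Bax, which opens the mitochondrial outer membrane, stood at 226 and 340.2 CPM, with a log2 ratio of 0.59 (0.56 to 0.62). Eda2r, a receptor of the tumour necrosis factor family, rested on 18 and 97 UMIs, with a log2 ratio of 2.02 (1.28 to 2.83). Bbc3, which encodes PUMA, was at 0.54, below the 1.5-fold line. In the wider BCL2 family 7 of 15 genes were past 1.5-fold higher and 1 lower with CPM (median 0.54), and 4 higher and 1 lower with either other scaling. The BH3-only gene Bcl2l11 stood at 48.6 and 88.2 CPM (0.86, 0.79 to 0.92) and the survival gene Mcl1 had a ratio of 0.18. The near-identical copies Bcl2a1a, Bcl2a1b and Bcl2a1d had ratios of 0.92, 0.72 and 1.38, and counting may have split reads among them.

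Repair and metabolic targets were mixed, with 6 of 15 past 1.5-fold. Ddit4, an inhibitor of mTORC1, had a log2 ratio of 1.47 (1.33 to 1.61), Sesn2, which also restrains mTORC1, of 1.00 (0.88 to 1.14), and the nucleotide excision repair gene Ddb2 of 0.79. The antioxidant gene Gpx1 lay on the other side of 0, at -0.35. Of the other 14 targets 6 were past 1.5-fold. The stress cytokine gene Gdf15 rested on 1166 and 4125 UMIs with a ratio of 1.41, the ephrin receptor gene Epha2 on 129 and 482 (1.49, 1.20 to 1.78) and the noncoding RNA Trp53cor1 on 53 and 220 (1.64, 1.20 to 2.10). Ckap2, a spindle gene that is also a p53 target, had the lowest ratio of the 56, -0.58.

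**Figure D1:**
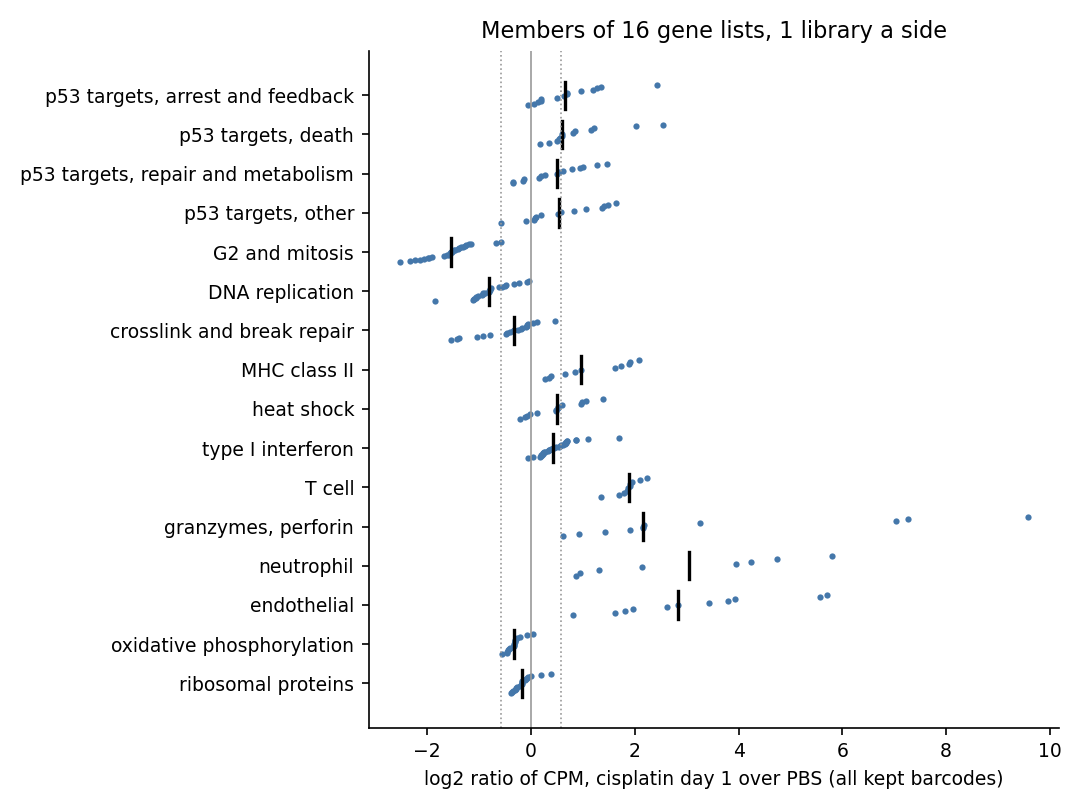
Each point is the log2 ratio of CPM, day 1 over PBS, of 1 gene over all kept barcodes, in 16 gene lists, for members with at least 100 UMIs. Black bars are list medians, dotted lines are 1.5-fold, and the neutrophil genes Ngp and Camp, without a PBS UMI, are drawn at their lower bound. The p53 lists lie mostly to the right of 0 and the G2 and mitosis list to its left, with a median of -1.53.

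Promoters are shown because members of the p53 lists and of the G2 and mitosis list stood apart in opposite directions. The sequences are from RefSeq (GRCm38.p6), 200 bases before to 25 after the annotated start, written 5′ to 3′ on the strand of the gene. Of the 57 p53 list genes 45 had an entry, with 61 promoters. The first 3 were taken by a rule on the size of the log2 ratio, and Cdkn1a was added after the data had been seen. A Cdkn1a promoter was to be printed only if it held a half-site match, so a match there was fixed by that choice. Capitals mark matches to the p53 half-site consensus.
Phlda3 (chr1:135765885-135766109, plus strand): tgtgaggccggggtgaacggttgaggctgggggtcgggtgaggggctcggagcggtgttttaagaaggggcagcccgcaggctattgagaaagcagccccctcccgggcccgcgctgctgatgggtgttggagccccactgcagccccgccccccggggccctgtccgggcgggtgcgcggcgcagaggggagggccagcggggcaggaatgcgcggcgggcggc
Eda2r (chrX:97377185-97377409, minus strand): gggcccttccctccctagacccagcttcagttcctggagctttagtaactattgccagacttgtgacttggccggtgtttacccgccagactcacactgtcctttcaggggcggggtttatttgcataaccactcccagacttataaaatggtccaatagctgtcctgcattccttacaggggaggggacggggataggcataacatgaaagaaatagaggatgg
Epha2 (chr4:141301021-141301245, plus strand): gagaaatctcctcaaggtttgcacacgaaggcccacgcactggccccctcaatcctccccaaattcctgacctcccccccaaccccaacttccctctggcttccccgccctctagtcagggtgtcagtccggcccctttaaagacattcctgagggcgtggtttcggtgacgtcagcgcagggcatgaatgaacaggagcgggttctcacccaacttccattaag
Cdkn1a (chr17:29090779-29091003, plus strand): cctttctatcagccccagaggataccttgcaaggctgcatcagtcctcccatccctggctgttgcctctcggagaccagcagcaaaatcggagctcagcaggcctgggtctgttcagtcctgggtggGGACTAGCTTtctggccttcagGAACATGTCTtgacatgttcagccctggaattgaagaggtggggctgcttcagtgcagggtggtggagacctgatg
The half-site matched, on either strand, in 24.6% of the 61 p53 list promoters over the full 300 bases of the table, beside 8.36% of all 32851 promoters and 11.5% of those of G2 and mitosis genes. The printed windows of Phlda3, Eda2r and Epha2 held no match, and that of Cdkn1a held 2, which begin 73 and 51 bases before the start. Pairs no more than 13 bases apart occurred in 1 of the 61 p53 list promoters, the Cdkn1a promoter printed above, and in 24 of all 32851 (0.0731%). With 1 promoter, no share of the p53 lists is read from this. A match is a description of letters and not of binding.

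Genes of G2 and mitosis stood lower on day 1. All 28 listed genes passed 100 UMIs, and 27 were at least 1.5-fold lower and 0 higher, with a median log2 ratio of -1.53. With TMM or DESeq2 factors all 28 were lower. The mitotic kinase gene Plk1 (ENSMUSG00000030867; GRCm38 chromosome 7, 122159439 to 122169873, plus strand) had 1375 PBS UMIs or 24.1 CPM and 319 day 1 UMIs or 4.20 CPM, a log2 ratio of -2.52 (-2.70 to -2.35). It was 5.74 times lower on day 1. The cyclin genes Ccnb2 and Ccnb1, partners of the mitotic kinase Cdk1, had ratios of -2.33 (-2.44 to -2.23) and -1.97 (-2.08 to -1.86). The phosphatase gene Cdkn3 was at -2.24, the survivin gene Birc5 at -2.06 and the centromere protein gene Cenpf at -1.98. The proliferation marker Mki67 stood at 121 and 43.8 CPM (-1.47, -1.53 to -1.41). Top2a, whose product untangles chromosomes, had a log2 ratio of -1.26. The smallest differences were in Cenpa at -0.67 and Cks2 at -0.58.

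DNA replication genes were lower by less. Of 24 genes 17 were at least 1.5-fold lower and 0 higher, with a median of -0.81. The thymidine kinase gene Tk1 stood at 70.8 and 19.7 CPM (-1.85, -1.93 to -1.76), and the helicase genes Mcm5 and Mcm6 had ratios of -1.11 and -1.10. The sliding clamp gene Pcna, which p53 can also activate, was at -0.23, and the licensing gene Cdt1 at -0.03. Of 21 genes that repair crosslinks and breaks 6 were lower and 0 higher, with a median of -0.33. Fanci and Fancd2, partners in the crosslink-sensing complex, had ratios of -1.54 (-1.99 to -1.11) and -1.43 (-1.75 to -1.11), and the histone gene H2afx of -1.39.

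Of the 28 G2 and mitosis genes 25 had a RefSeq promoter entry, with 26 promoters. The promoters of the 3 with the lowest ratios are shown, with CCAAT boxes in capitals (CCAAT, or ATTGG on the other strand).
Plk1 (chr7:122159235-122159459, plus strand): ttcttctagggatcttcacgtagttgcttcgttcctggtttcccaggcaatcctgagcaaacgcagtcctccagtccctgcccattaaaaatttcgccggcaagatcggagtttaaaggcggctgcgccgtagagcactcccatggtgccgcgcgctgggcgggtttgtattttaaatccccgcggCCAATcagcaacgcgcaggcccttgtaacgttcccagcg
Ccnb2 (chr9:70421530-70421754, minus strand): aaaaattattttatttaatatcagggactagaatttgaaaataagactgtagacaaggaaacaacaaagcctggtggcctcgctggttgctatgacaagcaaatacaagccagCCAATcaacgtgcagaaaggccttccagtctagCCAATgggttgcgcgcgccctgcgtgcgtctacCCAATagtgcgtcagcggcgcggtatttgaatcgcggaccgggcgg
Cdkn3 (chr14:46760341-46760565, plus strand): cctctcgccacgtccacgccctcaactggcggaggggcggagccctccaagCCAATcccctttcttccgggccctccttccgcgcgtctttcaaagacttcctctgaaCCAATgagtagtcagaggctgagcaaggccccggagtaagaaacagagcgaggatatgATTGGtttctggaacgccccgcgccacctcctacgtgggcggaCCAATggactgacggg
The printed windows hold 1 CCAAT box in Plk1, 3 in Ccnb2 and 4 in Cdkn3. Over the full 300 bases, CCAAT or ATTGG occurred in 92.3% of the 26 promoters, in 65.2% of the 23 replication gene promoters, in 50.8% of the p53 list promoters and in 37.4% of all promoters. The CHR letters TTTGAA, on either strand, occurred in 76.9% of the 26, in 3 of the 23 replication gene promoters, in 14.8% of the p53 list promoters and in 17.9% of all. Binding was not measured.

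Within the macrophage gate the p53 and mitotic lists lay on the same sides of 0. The p53 median was 0.60, with 27 of 54 measured targets past 1.5-fold higher and 1 lower, Ckap2 at -1.27, while Eda2r, Perp and Polh had under 100 UMIs. The 1.5-fold shares of all genes there were 9.71% higher and 5.08% lower. With TMM or DESeq2 factors 19 targets were higher and 1 lower. Phlda3 stood at 8.31 and 58.4 CPM (2.81, 2.67 to 2.97), Trp53inp1 at 3.73 and 20.1 CPM (2.43, 2.21 to 2.67) and Cdkn1a at 293 and 704 CPM (1.26, 1.24 to 1.29). The G2 and mitosis median was -2.04 with 28 of 28 lower. Plk1 had a ratio of -3.02 (-3.27 to -2.78) and Mki67 of -1.92. Deep barcodes in no gate held 38.7% of the day 1 Mki67 UMIs, compared with 12.7% after PBS. Such barcodes were also more frequent on day 1, at 17.5% of kept barcodes beside 7.18%. The Mki67 shares alone therefore show no move of its RNA between classes. Within these barcodes Mki67 was lower on day 1 too, at 77.3 CPM beside 153.8 CPM for PBS.

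Counting genes per barcode gave the direction without sums. At 2000 UMIs, the mean macrophage-gate barcode held 4.34 of the 57 p53 genes after PBS and 5.50 on day 1, with medians of 4 and 5. Barcodes with 9 p53 genes made up 0.841% and 4.61%. The distribution lay further right on day 1, and the libraries overlapped widely. Barcodes with at least 3 of the 28 G2 and mitosis genes made up 20.2% (19.3 to 21.2%) of the PBS gate and 4.55% (3.98 to 5.17%) of the day 1 gate. For the replication genes these shares were 19.9% and 7.73%.

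**Figure D2:**
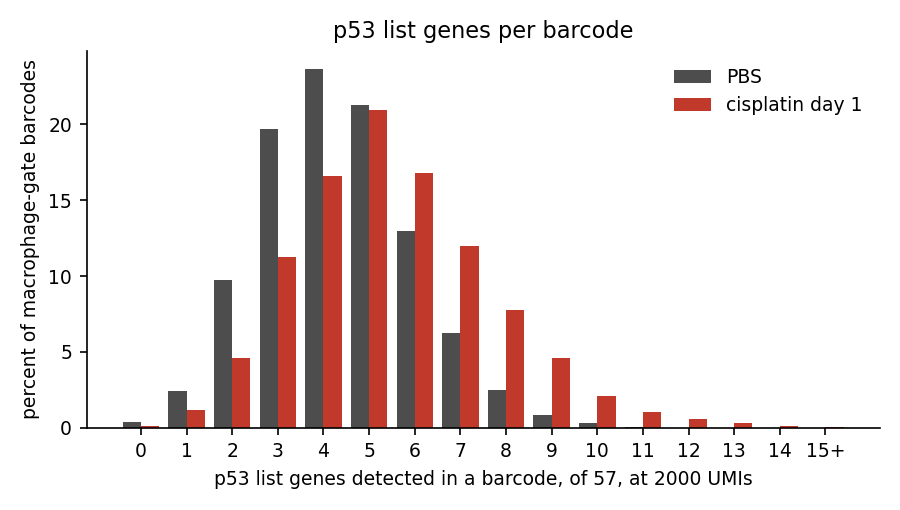
Bars give the percent of macrophage-gate barcodes (6781 PBS, 4902 day 1) by the number of the 57 p53 list genes detected after thinning to 2000 UMIs. The median is 4 genes after PBS and 5 on day 1, and the distributions overlap.

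Cdkn1a was found in more barcodes and at more UMIs per barcode. At 2000 UMIs it was detected in 38.4% and 64.0% of the macrophage-gate barcodes, and without thinning in 5427 and 6467 of all kept barcodes. Barcodes with 3 or more Cdkn1a UMIs made up 5.09% and 21.6% of the gate. Among barcodes with 1 or more, the mean on day 1 was 2.38 UMIs. Even then, 36.0% of the day 1 barcodes had no Cdkn1a UMI at this depth. Mdm2 was detected in 13.7% and 25.5%, Bax in 34.4% and 46.1% and Phlda3 in 1.59% and 8.61% of the same barcodes. In the lymphoid gate, which is no cell type known to lack it, Cdkn1a was detected in 22.4% and 30.6%.

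Macrophage-gate barcodes with and without mitotic RNA were then compared separately, a split added after the data had been seen. Barcodes with 0 G2 and mitosis genes at 2000 UMIs numbered 2952 after PBS and 3113 on day 1. There the median of 49 measured p53 targets was 0.62, beside an all-gene median of 0.07. Barcodes with 3 or more such genes numbered 1372 and 223. There the median of 41 measured targets was 0.99, beside an all-gene median of 0.05. The genes that make the split differ between the libraries themselves, so the ranges are a description and support nothing about the p53 lists. Phlda3 stood at 8.37 and 51.0 CPM in barcodes without G2 and mitosis genes (2.61, 2.37 to 2.85) and at 7.08 and 157 CPM in those with 3 or more (4.47, 4.15 to 4.80). Mdm2 had log2 ratios of 0.87 (0.78 to 0.95) and 1.67 (1.55 to 1.80) in the 2 ranges. Cdkn1a had ratios of 1.16 (1.12 to 1.20) and 1.66 (1.59 to 1.73). For the 6 genes plotted the counting intervals of the ranges do not overlap, but the difference between the ranges was not tested, since each has 1 library a side. The replication list lay on opposite sides of 0, with medians of -0.90 in barcodes without G2 and mitosis genes and 0.42 in those with 3 or more.

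**Figure D3:**
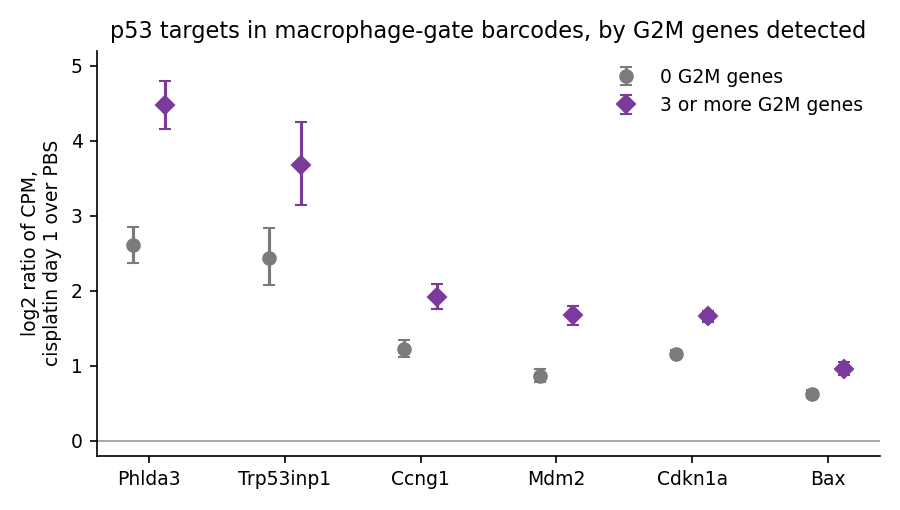
Points are log2 ratios of CPM, day 1 over PBS, of 6 p53 targets in macrophage-gate barcodes with 0 or with 3 or more G2 and mitosis genes detected at 2000 UMIs, and bars are exact 95% counting intervals. For each gene the ratio is higher in barcodes with 3 or more, for Phlda3 4.47 beside 2.61.

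MHC class II genes, which present antigen to CD4 T cells, were higher on day 1. Of 11 genes 8 were at least 1.5-fold higher and 0 lower over all barcodes, with a median of 0.96, and in the macrophage gate 7 of 10 were, with a median of 0.97. H2-Aa (ENSMUSG00000036594; GRCm38 chromosome 17, 34282744 to 34287823, minus strand), the alpha chain, stood at 183 and 725 CPM in the macrophage gate (1.99, 1.96 to 2.02). The beta chain gene H2-Eb1 had a log2 ratio of 2.04 (2.00 to 2.07) and the invariant chain gene Cd74 of 1.83. Their transactivator gene Ciita had a ratio of 1.08 (0.75 to 1.42). H2-Aa was detected at 2000 UMIs in 10.4% and 29.6% of macrophage-gate barcodes. In the lymphoid gate, which holds T cells that in the mouse should lack it, the shares were 5.17% and 20.0%, with median depths before thinning of 2551 and 3843.5 UMIs beside 6562 and 9771 in the macrophage gate. C1qa was found in 81.9% and 78.1% of the same lymphoid barcodes, which therefore hold macrophage RNA, and some ILCs can carry class II transcripts themselves. The part of such RNA in the class II difference was not tested. Barcodes with at least 3 class II genes made up 17.3% and 41.5% of the macrophage gate. Markers of other antigen-presenting cells moved with class II. The 10 conventional dendritic cell genes summed to 7.68 and 41.2 CPM in the macrophage gate and were found in 2.70% and 9.61% of unthinned barcodes, with a median barcode at 0. Their members Ccr7, a homing receptor, and Fscn1, an actin bundler, had 121 and 1087 and 147 and 794 UMIs there, while 7 of the 10 had under 100 UMIs. Of 8 monocyte genes 6 were at least 1.5-fold higher there (median 1.21), among them Ly6c2 at 1.29 (1.00 to 1.58), although their summed level was 2003 and 1701 CPM. The part of these cells in the class II difference was not tested.

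Interferon-gamma targets were also higher, with 13 of 20 genes past 1.5-fold and 0 lower in the macrophage gate, where the median was 0.81. Cd274, which encodes the inhibitory ligand PD-L1, stood at 5.24 and 19.6 CPM there (1.91, 1.71 to 2.11), and the GTPase gene Gbp4 had a ratio of 1.61. Nos2, which makes nitric oxide, rested on 19 and 156 UMIs (2.95, 2.26 to 3.72). Among the T cell chemokine genes Cxcl10 had a ratio of -0.08 and Cxcl9 of 0.64, so the list was not uniform. Ifng itself stood at 6.05 and 17.6 CPM over all barcodes (1.54, 1.37 to 1.72) and at 231 and 271 CPM in the lymphoid gate (0.23, -0.13 to 0.61). In the macrophage gate 11 of 32 type I interferon genes were higher with CPM and 6 with either other scaling. Their median was 0.36 with CPM, and the highest ratio was that of the DNA sensor family gene Ifi205 at 1.77 (1.57 to 1.98). The NF-kB list had 3 of 15 higher and a median of 0.36, beside 9.71% of all genes higher in the gate.

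**Figure D4:**
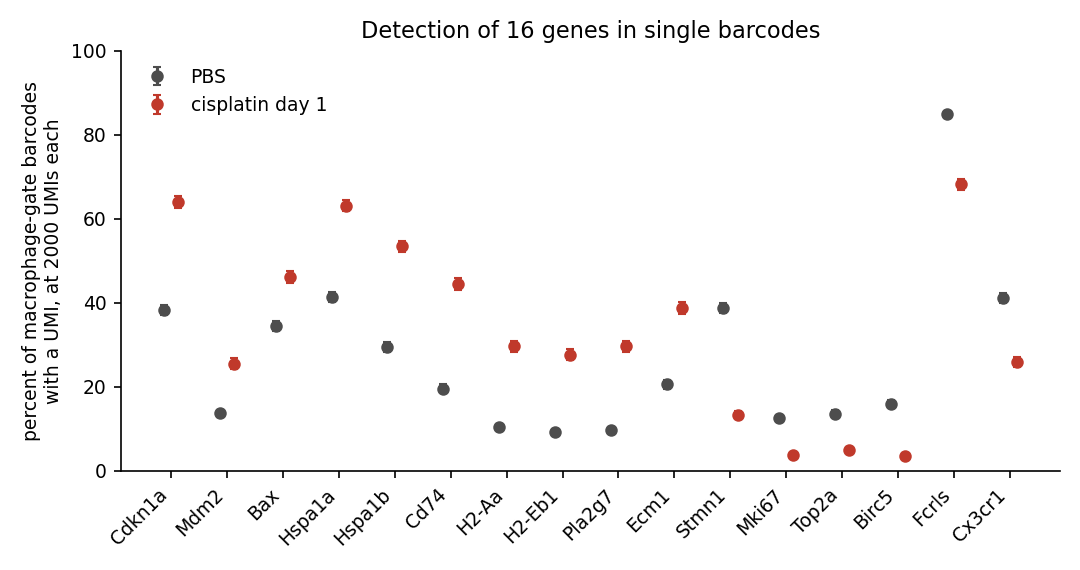
Points are the percent of macrophage-gate barcodes with a UMI of each of 16 genes after thinning to 2000 UMIs, with exact 95% intervals, in the PBS and day 1 libraries. Cdkn1a is at 38.4% and 64.0%, the class II and heat shock genes lie higher on day 1, and Stmn1, Fcrls and Cx3cr1 lie lower.

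Heat shock genes split by kind. Over all barcodes 5 of 14 were at least 1.5-fold higher and 0 lower, with a median of 0.50, beside 14.6% of all genes higher. With either other scaling 4 were higher. The inducible HSP70 genes Hspa1b and Hspa1a had log2 ratios of 1.38 (1.36 to 1.40) and 1.06 (1.04 to 1.07), the small heat shock gene Hspb1 of 0.98 and Hsph1, an exchange factor of HSP70, of 0.97. The constitutive HSP70 gene Hspa8 was at -0.01 and the mitochondrial chaperonin gene Hspd1 at -0.21. Hspa1b was detected at 2000 UMIs in 29.5% and 53.4% of macrophage-gate barcodes and Hspa1a in 41.3% and 63.1%. In the lymphoid gate 0 of 10 heat shock genes were past 1.5-fold, with a median of 0.07. Barcodes of that gate without an Hspa1b UMI at 2000 UMIs made up 67.2% after PBS and 53.5% on day 1. Hspa1a and Hspa1b are near-identical copies, so reads may have been split between them.

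Genes of respiration and translation lay mostly below 0. The 18 nuclear genes of oxidative phosphorylation had ratios between -0.56 and 0.04 and a median of -0.32. With CPM 0 of them were past 1.5-fold, with TMM factors 4 were lower (median -0.47) and with DESeq2 factors 5 (median -0.48). Uqcrc1, a subunit of complex III, was lowest. The 20 ribosomal protein genes had a median of -0.18 and none past 1.5-fold. Targets of the glucocorticoid receptor were higher, 6 of 12 past 1.5-fold with a median of 0.57, among them the leucine zipper gene Tsc22d3 at 0.61, the decoy receptor gene Il1r2 at 1.61 and the haemoglobin scavenger receptor gene Cd163 at 1.96. The haem oxygenase gene Hmox1 stood at 228 and 350.3 CPM (0.62, 0.59 to 0.65). In the NRF2 list, which responds to oxidants, 2 of 12 genes were past 1.5-fold higher with CPM and 1 with either other scaling. Of all genes 14.6% were higher with CPM, so the NRF2 count lay near that share and is not read as a result.

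The macrophage gate also differed in genes of macrophage state. The 10 gate genes were used to choose the barcodes and are given as a description, with a median of 0.07 with CPM, -0.05 with TMM and -0.03 with DESeq2 factors. Among the largest gains in detection were Pla2g7, a lipoprotein-associated phospholipase, at 9.76% and 29.6% (log2 ratio 1.90), and the matrix protein gene Ecm1 at 20.6% and 38.8% of barcodes. Detection of the Fc receptor-like gene Fcrls was 84.9% and 68.2%, and of the fractalkine receptor gene Cx3cr1 41.1% and 25.9%. Both were among the 8 genes with the largest losses. Stmn1, a microtubule regulator high in dividing cells, was detected in 38.7% and 13.3%, and Pmepa1, a TGF-beta target, in 65.9% and 50.3%. Of 19 matrix and remodelling genes 9 were higher and 1 lower with CPM, and 2 were lower with either other scaling, with the adhesive glycoprotein gene Thbs1 at 1.40 (1.36 to 1.45) and the collagenase gene Mmp13 at 1.86 (1.67 to 2.06). The arginase genes were both higher, Arg2, the mitochondrial form, at 1.78 (1.57 to 2.00) and Arg1, the cytosolic form, at 0.62 (0.55 to 0.69). Cd163 stood at 3.59 and 16.2 CPM (2.17, 1.94 to 2.41), with 29.6% of its day 1 UMIs in 10 barcodes. It was 1 of 2 among 7 measured resident macrophage genes past 1.5-fold with CPM. The chemokine genes Ccl6 and Ccl5 had ratios of 1.89 and 1.76.

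Lymphocyte genes were higher over all barcodes, and the mix of barcodes moved with them. The 10 T cell genes were past 1.5-fold with a median of 1.88, the 7 regulatory T cell genes with 2.09 and the 10 NK and ILC1 genes with 1.13. Of 14 co-inhibitory and co-stimulatory receptor genes 13 were higher, with a median of 1.79. The T cell receptor subunit gene Cd3e had 246 and 1549 UMIs (2.24, 2.05 to 2.44) and the co-receptor gene Cd8a 50 and 672 (3.33, 2.92 to 3.78). Foxp3, the regulator of regulatory T cells, had 169 and 963 (2.10, 1.86 to 2.34), and Tbx21, the regulator of type 1 lymphocytes, 40 and 227 (2.09). The UMI minimum is summed over both libraries, so scarce members of these lists such as Tbx21 passed it mainly through day 1. Gata3, a regulator of type 2 lymphocytes, had a ratio of 1.58. The sort markers Il7r and Thy1 had ratios of 1.89 (1.81 to 1.97) and 1.81 (1.67 to 1.95). The CD45 gene Ptprc, with 17841 and 32823 UMIs, was not past 1.5-fold, so 2 of the 3 sort markers were. Lymphoid and mixed barcodes, whose shares stand above, were both more frequent on day 1, and their part in these ratios was not tested separately from RNA per cell.

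Inside the lymphoid gate most of these genes differed less. The T cell median was 0.09 with 0 of 10 past 1.5-fold, but 8 of those 10 genes helped to choose the barcodes. The regulatory T cell median was -0.13, the receptor median -0.07 and the granzyme and perforin median -0.04. Foxp3 stood at 146 and 177 CPM (0.28, -0.17 to 0.75), the inhibitory receptor gene Ctla4 at 520.2 and 429 CPM and Gzmb, a granzyme of killer cells, at 532 and 597 CPM. Il7r had a ratio of 0.35 (0.14 to 0.58) and Thy1 of 0.59 (0.22 to 0.98). Some genes of NK cells, ILC1 and ILC2 lay below 0. The chemokine gene Xcl1 had a ratio of -1.29 (-1.52 to -1.04), Gata3 of -0.73 (-1.13 to -0.32) and the receptor gene Klrg1 of -1.03, while Gzma, a gate gene, was at -0.50. Cd8a, with 4 and 103 UMIs, had a ratio of 2.57 (1.17 to 4.47). The enkephalin gene Penk rested on 175 and 176 UMIs, or 532 and 123 CPM, with a ratio of -2.11 (-2.42 to -1.80). Over all kept barcodes it did not stand lower, with 356 and 573 UMIs in 79 and 181 barcodes. Up to 47 of these UMIs came from 1 barcode in each library.

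The p53 response in the lymphoid gate was measured at low depth. Day 1 gave the gate 1429488 UMIs and PBS 328727, so genes passed the 100 UMI minimum mainly through day 1, and the median of 0.41 over the 11 targets that passed is read with that in mind. With no minimum the median of 55 targets was 0.25, and with at least 5 lymphoid genes a barcode it was 0.20 over 8. The 57 targets summed to 2123 and 2839 CPM. Cdkn1a had 59 and 419 UMIs, or 179 and 293 CPM (0.71, 0.31 to 1.13). Mdm2 was at 0.62 (-0.03 to 1.34), Ccng1 at 0.66 (-0.04 to 1.44) and Bax at 0.23 (-0.19 to 0.67). Phlda3 had 0 and 17 UMIs in the gate. The whole G2 and mitosis list summed to 1068 and 926 CPM, and the 5 of its genes that passed the minimum had a median of 0.23. Barcodes with at least 3 genes of the list made up 11.2% (6.10 to 18.4%) and 7.74% (5.02 to 11.3%), intervals that overlap. Mki67 stood at 60.8 and 90.9 CPM (0.58, -0.11 to 1.34), with 80.0% of its day 1 UMIs in 10 barcodes. Whether the gates differ in their response was not tested.

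**Figure D5:**
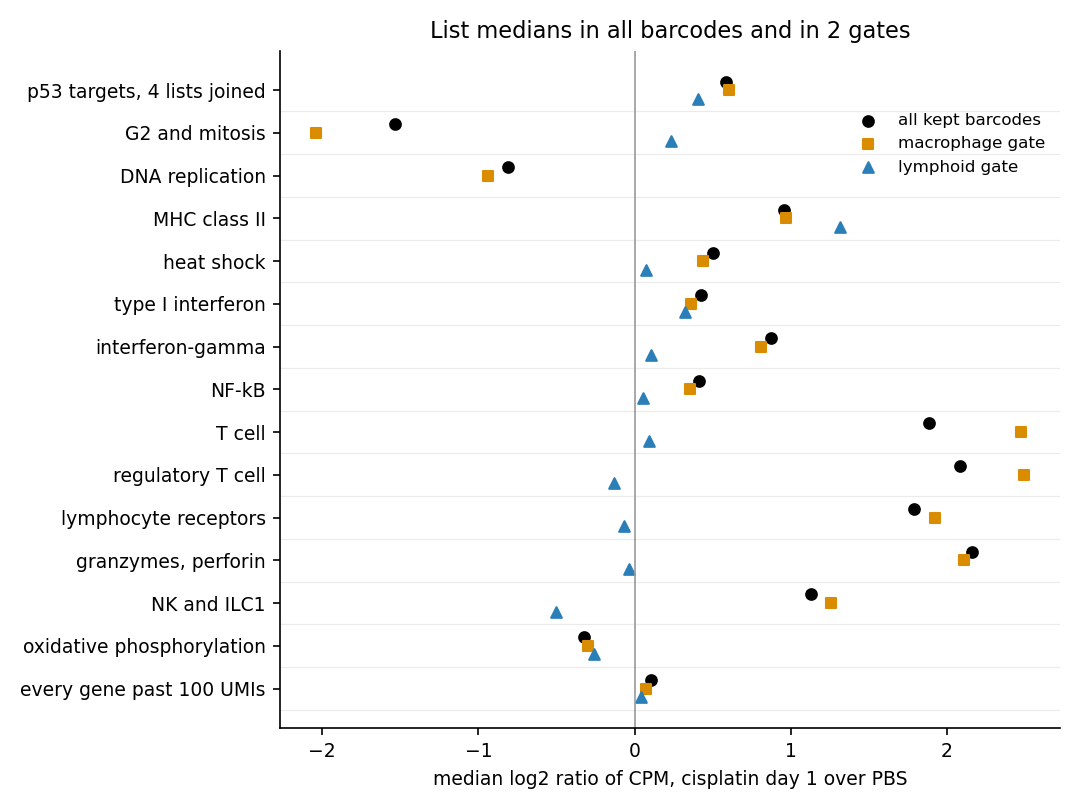
Points are list medians of the log2 ratio of CPM, day 1 over PBS, over all kept barcodes, in the macrophage gate and in the lymphoid gate, for lists with at least 3 measured genes. The p53 medians are 0.58, 0.60 and 0.41, and the T cell medians 1.88, 2.47 and 0.09. The T cell genes of the macrophage gate passed the UMI minimum largely through day 1.

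In the macrophage gate the T cell list had a median of 2.47. Its genes passed the UMI minimum there largely through day 1, as with Cd3e at 24 PBS and 189 day 1 UMIs. The gate itself asks for none of 15 T and NK cell genes at 2000 UMIs. Of the 10 list genes only Cd5 and Cd6 are not among those 15. For the others, what is left is residual RNA from beyond that depth. The day 1 barcodes were deeper, with medians of 6562 and 9771 UMIs, and the part of depth in the median was not tested. The list summed to 9.80 and 50.8 CPM, beside 4432 and 4646 CPM in the lymphoid gate. A UMI of any of the 10 genes was found in 5.28% and 29.6% of the unthinned macrophage-gate barcodes. These are levels at which free RNA cannot be told apart from expression, and no expression by macrophages is read from them.

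Granzymes F, D and E were scarce after PBS. Gzmf had 3 and 3057 UMIs, Gzmd 6 and 1047 and Gzme 3 and 616, but 706 of the Gzmf UMIs came from 1 barcode and 72.8% from 10. The log2 ratio of Gzmf was 9.58 (8.03 to 11.86) and lay between 7.25 and 9.60 over other ways of scaling and filtering. Gzmf was found in 393 day 1 barcodes, and 48.6% of its UMIs lay in the mixed barcodes. These granzymes are near-identical copies, so the split between them is uncertain. Gzmc, a close relative, had 348 and 2070 UMIs over all barcodes (2.16, 1.99 to 2.33). In the lymphoid gate it stood at 295 and 288 CPM, while Gzmf had 0 UMIs after PBS and 390 on day 1 there.

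Markers of other cells also stood higher on day 1, several of them from few barcodes. Neutrophil genes passed the minimum of 100 UMIs largely through day 1, so no count or median of the list is read. Ngp and Camp, proteins of neutrophil granules, had 0 UMIs after PBS and 223 and 107 on day 1, at least 55.8-fold and 26.8-fold higher against a floor of 3 counts in the PBS library. S100a9, a calcium-binding alarmin, had 34 and 855 UMIs in 12 and 560 barcodes (4.24, 3.74 to 4.78), a ratio between 2.80 and 5.94 over the other settings and lowest with each barcode weighted equally. Of the UMIs of Ngp 99 came from 1 barcode. At 2000 UMIs 0 PBS and 2 day 1 barcodes held 3 or more neutrophil genes. Endothelial genes likewise passed largely through day 1, and the capillary genes Gpihbp1 and Plvap had 6 and 416, and 28 and 570 UMIs. Of these day 1 UMIs 85.6% and 81.4% came from 10 barcodes, and 0 PBS and 14 day 1 barcodes held 3 or more endothelial genes. Of 9 mast cell and basophil genes 8 were higher, with the mast cell protease gene Cpa3 at 12.0 and 42.2 CPM (1.81, 1.69 to 1.94), and 18 PBS and 61 day 1 barcodes held 3 or more of the list. Fibroblast genes had a median of 1.06, with 71.6% of the day 1 Col1a1 UMIs in 10 barcodes. Over all barcodes 12 PBS and 49 day 1 barcodes held 3 or more conventional dendritic cell genes, and 68 and 170 held 3 or more monocyte genes. The epithelial gene Krt18 had 2 and 14 UMIs. Non-immune cells should not pass a CD45+ gate, and the part of sort purity was not tested.

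The later libraries are given for context, with 1 library for each day. Cdkn1a stood at 1074 CPM on day 3 and 518 CPM on day 7, Phlda3 at 48.8 and 24.5 CPM and Mdm2 at 247 and 56.7 CPM. Plk1 stood at 3.23 and 13.6 CPM. Hspa1b stood at 192 and 316 CPM, both under its 425 and 1110.0 CPM after PBS and on day 1. H2-Aa stood at 1914 and 579 CPM.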

How the data were processed

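Single-cell 3' RNA of sorted tumour cells was measured in 1 droplet library a group. The deposited matrices hold whole-number UMI counts for 31053 features, unnormalized, per the file headers and values. Cell Ranger 3.1.0 and Seurat 3.1.2, whose roles are not given in the sources used here, and the mm10 genome come from the submitters' processing notes. Barcodes were kept at 500 or more genes and at most 10% mitochondrial UMIs. Raw counts were summed and scaled to CPM. Ratios have exact conditional binomial 95% intervals and shares Clopper-Pearson 95% intervals. A gene counted as past 1.5-fold only with at least 100 UMIs over both libraries. For detection each barcode was thinned to 2000 UMIs, which left out 505 PBS and 555 day 1 barcodes. The 1% limit of the lymphoid gate counts the 10 macrophage genes, Apoe and Lyz2.

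Scrublet, run through scanpy, called 0 and 1 doublets and so did not work here. Doublets were kept, and an alternative removed the 650 and 643 highest scores. No test was made, since each group has 1 library. Alternatives changed the scaling, weighting, depth, barcode limits, gene minimum, fold and gate limits. The script was tested on simulated data. Genes were named by a rule: a fixed set, the 15 highest and 15 lowest over all barcodes, up to 4 per list by size of the ratio, the 10 highest and 10 lowest in each gate and the 8 largest gains and losses in detection. Further list members were named after their values were seen. The members and lists were chosen with earlier results of these data known. Positions come from the GENCODE annotation of GRCm38. Tools were python 3.11.15, numpy 2.4.6, scipy 1.17.1, pandas 2.3.3, scanpy 1.11.5, matplotlib 3.10.9 and R 4.3.3, with edgeR 4.0.16 and DESeq2 1.42.0 used only for scaling factors of the counts.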

Additional observations from a re-analysis of the deposited data

How the results depend on the processing

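None of the p53 and mitotic medians and single-gene log2 ratios recomputed under these alternatives reversed in sign. Counts and shares have no sign to reverse. The sign of list medians near 0 and of the all-gene median did change under other scalings. The all-gene median over all barcodes, 0.11, was -0.04 with TMM and -0.05 with DESeq2 factors. In the macrophage gate 1099 genes were higher and 575 lower with CPM, 798 and 806 with TMM and 830 and 761 with DESeq2 factors. The count of genes at least 1.5-fold lower over all barcodes, 495, was 843 with TMM and 877 with DESeq2 factors, 2636 without the UMI minimum and 192 at 2-fold. The count of higher genes, 1760, was 1017 after thinning to 2000 UMIs, 5037 without the minimum, 890 with at least 500 UMIs and 764 at 2-fold. The p53 median over all barcodes, 0.58, was 0.44 with TMM and 0.43 with DESeq2 factors, and the G2 and mitosis median, -1.53, was -1.69 with DESeq2 factors and -1.77 after thinning. At 4000 UMIs Cdkn1a was detected in 56.4% of PBS and 80.1% of day 1 macrophage-gate barcodes. The other 58 values of these and the gate results stayed within 1.5 times the count, or within the interval of the median or share. The log2 ratio ranged from 1.11 to 1.27 for Cdkn1a, from 2.38 to 2.55 for Phlda3 and from -2.83 to -2.48 for Plk1. Leaving out a library was not possible. No paired analysis was possible because each group has 1 library and the labels carry no replicate numbers. Depth limits the lymphoid gate most, where 11 of 57 p53 targets were measured.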

Other observations

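Gene groups outside the comparisons above are given as values over all kept barcodes, beside an all-gene median of 0.11. Of 14 measured circadian clock genes 3 were at least 1.5-fold higher and 0 lower with CPM (median 0.24), beside 14.6% of all genes higher, and 0 were past 1.5-fold with TMM (median 0.10) or DESeq2 factors (median 0.09). The repressor genes Ciart and Nr1d2 had log2 ratios of 0.70 (0.49 to 0.90) and 0.69 (0.55 to 0.82), and the output gene Dbp and the core clock gene Per2 of -0.32 and -0.37. The hour of tissue collection is not given. Of 13 complement genes 4 were higher and 0 lower (median 0.19). C3, the central component of the cascade, stood at 28.9 and 68.9 CPM (1.25, 1.17 to 1.33), while C1qa stood at 5373 and 5063 CPM. Of 13 mitochondrially encoded genes 2 were higher, mt-Atp8 at 0.85 and mt-Nd6 at 0.75. This count lay near the 14.6% share of all genes and is not read as a result. The median was 0.19 with CPM, 0.05 with TMM and 0.04 with DESeq2 factors. Barcodes above 10% mitochondrial UMIs had been removed. In the amino acid stress list of ATF4, 4 of 15 genes were past 1.5-fold higher and 3 lower (median -0.02). The cystine transporter gene Slc7a11 had a ratio of 1.36.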
